A study of Homo sapiens with 18 samples.

Results

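This comparison sets 3 RNA libraries labelled 9 days without doxycycline against 3 labelled 6 days without it. All 6 came from 1 engineered HAP1 line, and they were chosen by their labels alone, 6 of the 18 libraries of the series. HAP1 is a near-haploid human line derived from the leukaemia line KBM-7. The engineered line has its SARS2 gene deleted and carries a SARS2 transgene with 1 FLAG tag, written delSARS2+SARS2-1xFLAG in the labels and called the deleted line here. Cells were kept in IMDM with 15 ng/mL doxycycline, until the drug was withdrawn to deplete SARS2. The other 12 libraries, 3 in each group, came from the deleted line on doxycycline, the deleted line labelled 3 days without it, and unmodified parental HAP1 with and without it. The question was how gene expression differs between cells with SARS2 and cells depleted of it for increasing times. The labels do not say whether the line is 1 clone or whether replicates were separate cultures. The p-values therefore cover no more than the spread among libraries, which may be technical.

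SARS2 encodes the mitochondrial enzyme that loads serine onto mitochondrial transfer RNAs so that the organelle can make its own respiratory chain subunits. When mitochondrial protein synthesis falters, cultured cells are known to turn on the integrated stress response. In that pathway kinases phosphorylate eIF2alpha, translation of the transcription factor ATF4 goes up, and ATF4 with its partners switches on genes of amino acid import, amino acid synthesis and secreted stress signals. Ribosome building, DNA replication and the heat shock chaperones are gene programmes that follow cell growth in many cultured cells.

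The 6 libraries held 79576230 to 111123481 counts assigned to genes, and the 18 of the series held 66850705 to 111123481. Levels are CPM, counts over a library size scaled by the trimmed mean of M-values, and changes are log2 fold changes, day 9 over day 6, with their standard error (SE). Genes with an adjusted p under 0.05 are termed called, by edgeR's quasi-likelihood test with Benjamini-Hochberg adjustment over the 21615 genes tested, and adjusted p-values below come from that test. On the first principal component of the 18 libraries, which held 59.9% of the variance, day 6 lay between −22.9 and −12.6 and day 9 between 26.3 and 30.0. Parental cells without doxycycline lay between −30.1 and −19.9 on it. The haematopoietic markers MPO, GATA1 and HBG1 had no count in the 6 libraries, and PTPRC (CD45) stood at 0.0664 CPM at most, but KIT of the same list stood at 7.44 to 22.4 CPM. Among epithelial markers CDH1 (E-cadherin) had no count, and KRT18 stood at 29.8 to 59.6 and ESRP1 at 4.50 to 12.4 CPM. VIM, the mesenchymal filament vimentin, stood at 591 to 1010 CPM.

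Counts on SARS2 itself were higher in the libraries labelled day 9 than in those labelled day 6, where withdrawal was shorter by label. SARS2 (chromosome 19, 38915266 to 38930763, minus strand, GRCh38) stood at 23.2, 25.8 and 25.02 CPM in the libraries labelled day 6 and at 43.3, 34.0 and 48.1 CPM in those labelled day 9. All 3 day 9 libraries lay above all 3 day 6 libraries, by 0.76 ± 0.10 (SE) on the log2 scale (adjusted p = 1.6e-06). The deleted line on doxycycline stood at 24.2 ± 0.922 CPM (SD, n = 3), the libraries labelled day 3 at 31.6 ± 0.986. Parental cells stood at 44.3 ± 1.67 CPM with doxycycline and 39.9 ± 3.03 without. From low to high, the deleted line on doxycycline and day 6 overlapped, day 3 lay above both, and parental cells and day 9 overlapped at the top. Counts on this name do not separate the transgene from the endogenous locus. Day 6 and day 9 below therefore mean libraries labelled so, and each direction over time rests on those labels.

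The neighbours of SARS2 were higher at day 9 too. MRPS12, a protein of the small mitochondrial ribosomal subunit whose gene starts head to head with SARS2 (38930944 to 38933168, plus strand), stood at 31.0, 24.0 and 28.0 CPM at day 6 and 49.5, 49.0 and 69.6 CPM at day 9. Its log2 fold change was 1.02 ± 0.14 (adjusted p = 5.8e-06). NFKBIB, an inhibitor of NF-kB on the other side (38899666 to 38908889), rose by 0.71 ± 0.14 (adjusted p = 0.00015), and in both genes the days did not overlap. In parental cells without over with doxycycline, MRPS12 gave −1.15 and NFKBIB −1.08, but SARS2 gave −0.15 (adjusted p = 0.22).

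**Figure D1:**
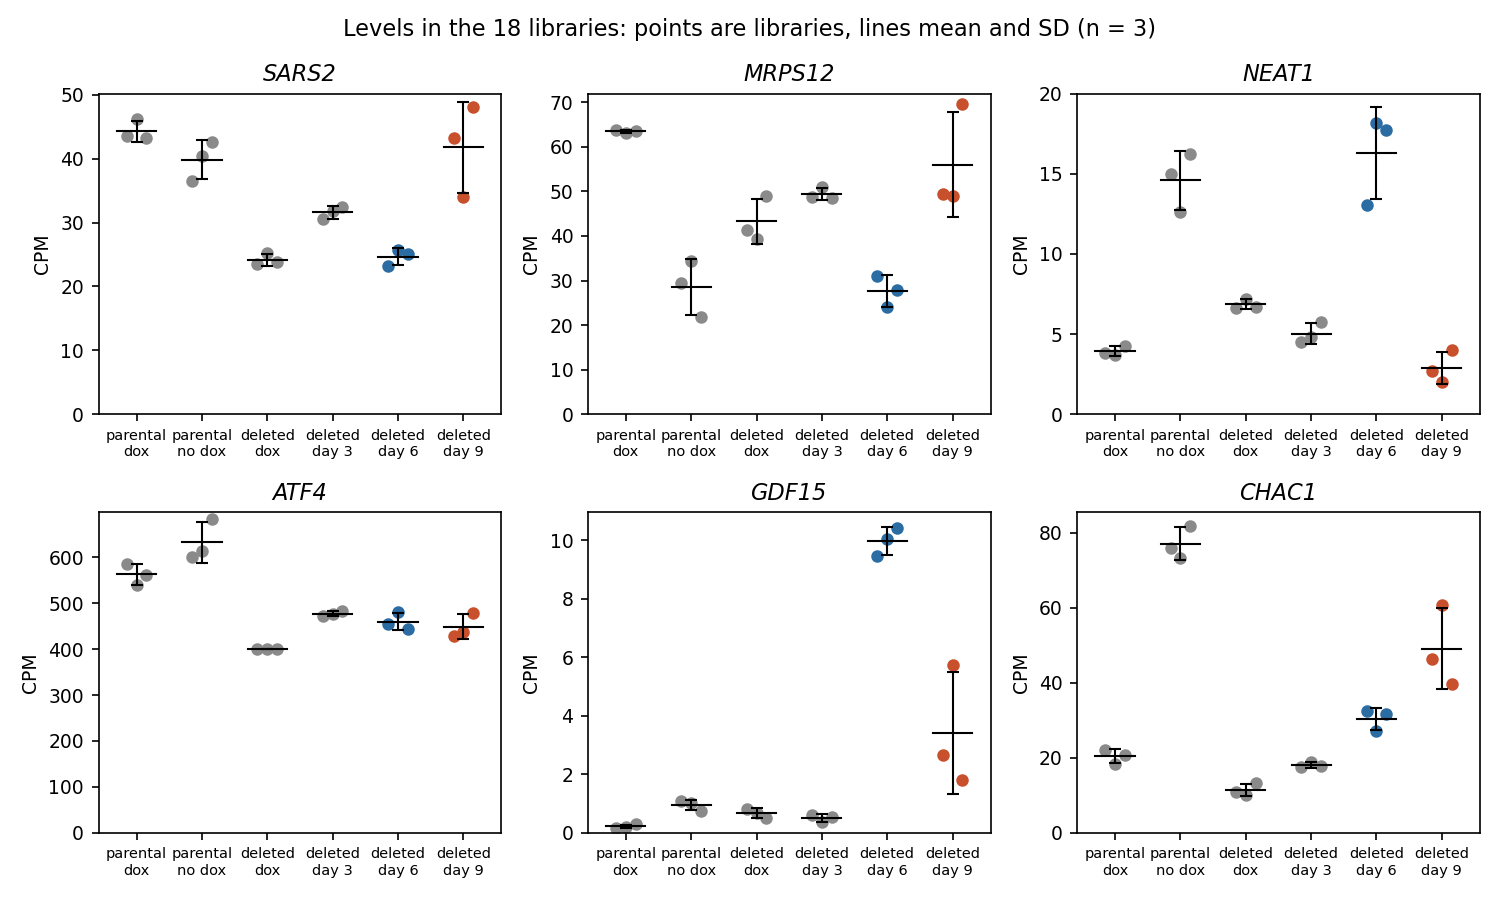
Levels of 6 genes in the 18 libraries, in CPM on linear axes from 0: points are libraries, horizontal lines group means and bars SD (n = 3), with day 6 in blue and day 9 in orange-red. SARS2 and MRPS12 are higher at day 9, NEAT1 and GDF15 lower, ATF4 overlaps between the days, and GDF15 is at 9.47 to 10.4 CPM at day 6 and 5.75 or less in every other group.

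At day 9, genes that build ribosomes, translate in mitochondria, replicate DNA and serve as cytosolic chaperones mostly stood higher than at day 6. Quiescence-linked genes and many genes of mitosis stood lower, and genes of the stress response regulated by ATF4 were called in both directions. Of the 21615 genes tested, 12709 were called, or 58.8%, with 6183 higher at day 9 (28.6%) and 6526 lower (30.2%). At least 2-fold changes were called for 1627 genes upward (7.53%) and 2698 downward (12.5%). The libraries of the days did not overlap in 60.7% of genes tested, 29.7% higher at day 9 and 31% lower. Counts for gene groups below are to be read against those shares. With a stricter filter, a mean of at least 5 CPM on either day, the 2-fold counts were 540 and 907. Scaling by library size alone lowered the median log2 fold change of all genes from −0.02 to −0.15 and the higher share of called genes from 48.7% to 38.6%, and changes are given relative to the first of these scalings. In these bulk samples fewer cells of a type and less RNA per cell cannot be told apart.

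Most of the largest rises were in genes at low levels on day 6. DOK3, an adaptor that restrains signalling of immune receptors (chromosome 5, 177501904 to 177511100), went from 1.65, 0.900 and 1.48 CPM to 28.8, 22.7 and 26.7 CPM. That is a log2 fold change of 4.28 ± 0.22, or 19.4-fold (adjusted p = 2.9e-11). NCOA5, a nuclear receptor coregulator expressed at a higher level (chromosome 20, 46060991 to 46089962), went from 15.3, 9.00 and 13.2 CPM to 81.3, 74.5 and 101 CPM. Its change was 2.78 ± 0.17 (adjusted p = 1.8e-10). PRR22 (4.04 ± 0.33), the hormone gene AMH (3.09 ± 0.40), IGSF10 (2.98 ± 0.25) and the embryonic myosin MYH3 (2.98 ± 0.23) rose too, with the days apart, as did CFAP298-TCP10L (2.68 ± 0.26), a readthrough locus whose counts overlap those of its 2 parts. DUSP6, a phosphatase that switches off ERK, stood at 1.36, 0.691 and 0.785 CPM at day 6 and 5.82, 5.70 and 12.7 CPM at day 9 (3.10 ± 0.33, adjusted p = 1.7e-07). The mean level of IGSF10 was 6.32 CPM at day 9 but also 6.78 CPM at day 3, with 0.801 CPM at day 6.

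The genes with the largest falls had higher mean levels at day 6 than in the deleted line on doxycycline, a difference given here as values only. DMGDH, the mitochondrial dimethylglycine dehydrogenase (chromosome 5, 78997564 to 79069674), went from 18.9, 15.4 and 21.1 CPM to 0.420, 0.800 and 0.910 CPM. It was 25.8-fold lower (−4.69 ± 0.22, adjusted p = 1.9e-11), and the deleted line on doxycycline held 1.99 ± 0.118 CPM. SYT1, the calcium sensor of synaptic vesicles, went from 19.1, 23.8 and 19.9 CPM to 1.97, 2.38 and 1.64 CPM (−3.39 ± 0.15, adjusted p = 1.2e-11), a fall that was smaller (−2.57) in a fit with a trend of gene span and exonic length removed, described below. For both genes every day 9 library lay below every day 6 library. PNCK (−3.99 ± 0.27), LGI4 (−3.76 ± 0.34), VSTM2B (−3.73 ± 0.30), CLEC2L (−3.47 ± 0.18) and MVP, the major vault protein (−3.43 ± 0.29), fell as well.

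**Figure D2:**
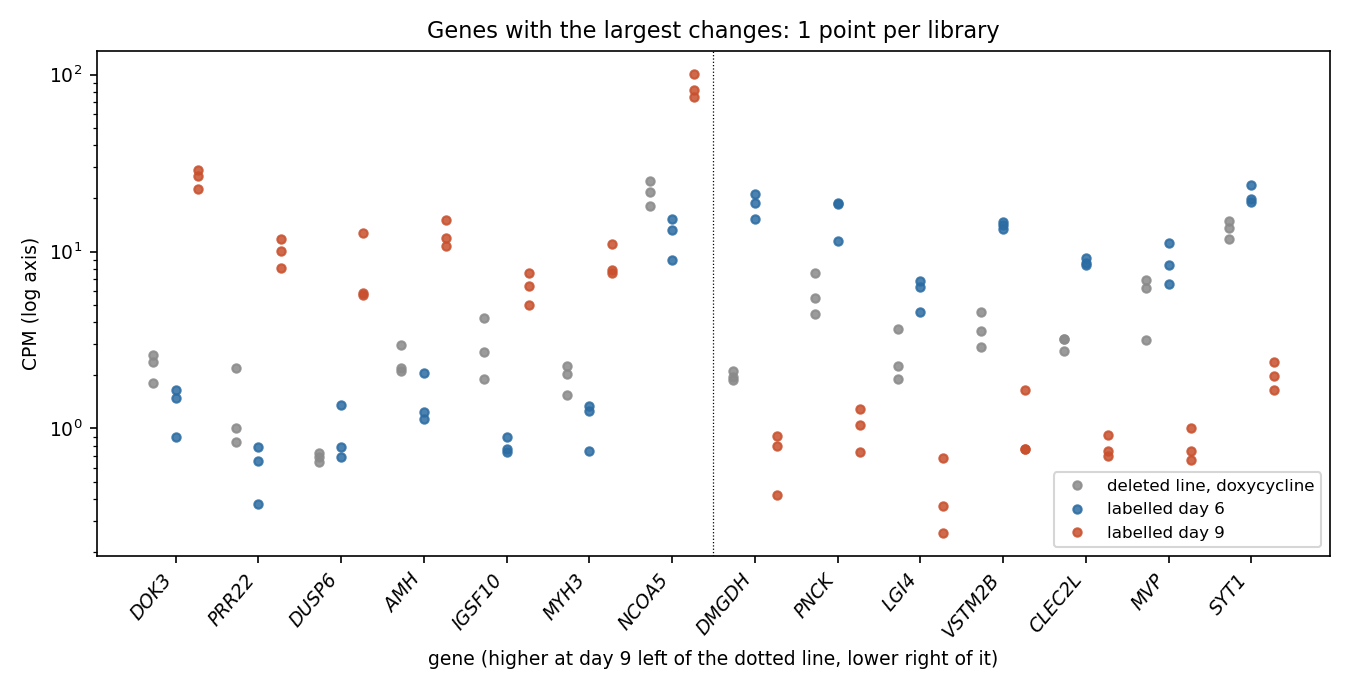
CPM per library, on a log axis, of 14 of the genes with the largest changes: grey points are the deleted line on doxycycline, blue day 6 and orange-red day 9 (3 libraries each). Day 6 and day 9 points are apart for all 14 genes drawn, and for DMGDH and SYT1 the grey points lie between them.

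Genes of the integrated stress response were called in both directions between the days. In the lists of the response and of ATF4 targets, 44.4% to 78.6% of tested members were called, against 58.8% of all genes tested. ATF4 itself stood at 454, 480 and 445 CPM at day 6 and 429, 438 and 479 CPM at day 9. The days overlapped, and the log2 fold change was −0.03 ± 0.06 (adjusted p = 0.65), and it was called lower with library size alone (−0.16). With the span and length trend removed ATF4 gave −0.22 (adjusted p = 0.053), and with the replicate block added to that fit −0.23 (adjusted p = 0.046). Of the 9 transcription factors of the response, 2 were called higher, 2 lower, and 5 did not pass. ATF5, which is switched on in mitochondrial stress, went from 43.2, 31.9 and 39.4 CPM to 46.7, 47.2 and 57.8 CPM (0.41 ± 0.12, adjusted p = 0.0066), a call lost (0.23) with the span and length trend removed. DDIT3 (CHOP), the factor linked to stress-induced death, went from 45.0, 58.0 and 48.5 CPM to 36.8, 44.4 and 32.1 CPM (−0.42 ± 0.12, adjusted p = 0.0057). That call was lost without day 6 replicate 2 (−0.31). CEBPG, a dimer partner of ATF4, fell by 0.21 ± 0.06 (adjusted p = 0.0061), and the NUPR1 call (0.83, adjusted p = 0.032) was lost without any of day 6 replicates 2 or 3 or day 9 replicates 1 or 2 (0.38 to 0.77). Without day 6 replicate 2 or 3 or day 9 replicate 2, 1 factor was called higher.

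Upstream of ATF4, 8 of 14 genes were called higher and 3 lower. The 8 included 4 subunits of eIF2B, the exchange factor that the pathway inhibits. EIF2B4 went from 37.6, 32.5 and 33.9 CPM to 69.7, 67.3 and 69.4 CPM (0.99 ± 0.08, adjusted p = 3.1e-09), EIF2B1 rose by 0.90 ± 0.06, EIF2B2 by 0.56 ± 0.07 and EIF2B5 by 0.51 ± 0.05. The 3 lower genes were the kinases EIF2AK3 (PERK, −0.44 ± 0.10) and EIF2AK4 (GCN2, −0.37 ± 0.05) and the phosphatase subunit PPP1R15B (−0.46 ± 0.10). OMA1, the mitochondrial protease of the relay, gave 0.04 ± 0.09 (adjusted p = 0.74).

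Targets of ATF4 went both ways. Among 12 amino acid transporters 6 were called higher and 2 lower, with a median log2 fold change of 0.15. SLC7A5, the large neutral amino acid exchanger, rose from 335, 322 and 335 CPM to 484, 472 and 553 CPM (0.61 ± 0.06, adjusted p = 1.1e-07), and the glycine carrier SLC6A9 rose by 0.77 ± 0.09. SLC7A11, the cystine importer, went the other way, from 128, 137 and 136 CPM to 64.2, 55.6 and 104 CPM (−0.84 ± 0.15, adjusted p = 9e-05).

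Of 14 synthesis enzymes 6 were called higher and 5 lower, against 28.6% and 30.2% of all genes tested. CBS, which makes cystathionine, went up from 95.5, 67.2 and 83.3 CPM to 137, 143 and 132 CPM (0.74 ± 0.13). CHAC1, which breaks down glutathione, went up from 32.5, 27 and 31.6 CPM to 46.4, 60.8 and 39.8 CPM (0.69 ± 0.13, adjusted p = 0.0001). ASNS, the asparagine synthetase, and ALDH1L2 were chosen after their values were seen. ASNS went down from 9.29, 14.6 and 10.7 CPM to 4.15, 4.16 and 3.13 CPM (−1.60 ± 0.20, adjusted p = 9.6e-07). ALDH1L2, the mitochondrial formate-handling enzyme, fell by 2.09 ± 0.30 (adjusted p = 6.8e-06), from 1.03 to 1.56 CPM to 0.147 to 0.420 CPM.

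The promoters of ASNS and CHAC1 are shown by a rule that took called members with an ATF4 element and the largest absolute log2 fold changes. These genes moved in opposite directions. The element searched was TGATGNAA on both strands, in 250 bases before and 50 bases after the gene start. It was found in 3 of 9 enzyme promoters, 5 of 10 transporter promoters, 3 of 8 of the transcription factors, 1 of 4 of the secreted factors, 0 of 6 of the growth brakes and 2.88% of the 14347 promoters of tested genes with a window. Sequences are from RefSeq on GRCh38.p14, in the direction of transcription, chr7:97872359-97872658 (minus strand) for ASNS and chr15:40953221-40953520 (plus strand) for CHAC1, with the element in capitals. A match is a description of the letters, not of binding.
ASNS: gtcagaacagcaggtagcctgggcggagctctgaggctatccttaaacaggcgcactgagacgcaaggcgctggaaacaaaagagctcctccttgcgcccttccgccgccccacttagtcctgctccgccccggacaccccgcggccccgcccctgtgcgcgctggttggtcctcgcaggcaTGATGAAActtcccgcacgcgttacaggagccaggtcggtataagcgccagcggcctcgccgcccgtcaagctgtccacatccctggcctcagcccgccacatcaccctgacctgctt
CHAC1: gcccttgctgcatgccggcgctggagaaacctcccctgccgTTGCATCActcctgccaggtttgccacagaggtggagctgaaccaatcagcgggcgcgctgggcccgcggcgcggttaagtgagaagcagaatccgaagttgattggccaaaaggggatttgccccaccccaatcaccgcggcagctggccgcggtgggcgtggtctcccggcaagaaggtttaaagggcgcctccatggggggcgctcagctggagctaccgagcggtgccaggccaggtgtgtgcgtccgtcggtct
In ASNS the element began 68 bases before the start, on the coding strand. In CHAC1 it began 209 bases before it and read on the opposite strand.

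Of 6 secreted stress factors 3 were called lower and none higher. GDF15, the circulating signal of mitochondrial disease, stood at 9.47, 10.04 and 10.4 CPM at day 6 and 2.65, 5.75 and 1.79 CPM at day 9 (−1.55 ± 0.29, adjusted p = 0.00014). All 3 day 9 libraries were below day 6, yet above the deleted line on doxycycline (0.669 ± 0.163 CPM, SD, n = 3), and without day 9 replicate 2 the log2 fold change was −2.17. ADM2 fell by 1.05 ± 0.11 and STC2 by 0.46 ± 0.06. INHBE, an activin subunit, gave 0.56 ± 0.25 (adjusted p = 0.065).

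Of 8 brakes on growth listed as ATF4 targets 3 were called in each direction, against 28.6% higher and 30.2% lower of all genes tested. KLHL24 went from 57.8, 108 and 70.0 CPM to 15.7, 20.9 and 12.6 CPM (−2.26 ± 0.19), SESN3 from 53.4, 84.1 and 56.3 CPM to 17.1, 18.4 and 17.96 CPM (−1.86 ± 0.12), and DEPTOR, an inhibitor inside the mTOR complexes, fell by 2.43 ± 0.16. SESN2, the leucine sensor, rose by 0.41 ± 0.07 (adjusted p = 5.8e-05). The calls of DDIT4 (0.43) and SESN1 (0.21) were lost without day 9 replicate 2 (0.22 and 0.15) or without day 6 replicate 1 (0.38 and 0.21), and that of SESN1 also without day 6 replicate 2 or 3 (0.22 and 0.21), leaving 1 member called higher without day 6 replicate 1 or day 9 replicate 2.

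Nuclear genes of the mitochondrial protein synthesis machinery were higher at day 9 as a group. Of 78 mitochondrial ribosomal protein genes 71 were called higher and 1 lower, against 28.6% and 30.2% of all genes. Their median log2 fold change was 0.56 against −0.02 for all genes. With the span and length trend removed 58 were higher and 1 lower (median 0.39). MRPL27 went from 20.8, 17.4 and 18.2 CPM to 46.1, 39.0 and 48.0 CPM (1.24 ± 0.08, adjusted p = 8.8e-10). MRPS11 rose by 0.95 ± 0.07, MRPS15 by 0.87 ± 0.07 and MRPL49 by 0.79 ± 0.07, and the lower gene was MRPS5 (−0.20 ± 0.06). Among 17 mitochondrial transfer RNA synthetases 10 were called higher and 2 lower. AARS2, the alanine enzyme, went from 38.8, 28.5 and 36.8 CPM to 72.7, 70.1 and 74.9 CPM (1.07 ± 0.10), although its gene overlaps POLR1C on the opposite strand and the counts may be shared. NARS2 (−0.60 ± 0.10) and RARS2 (−0.26 ± 0.07) were the lower members, RARS2 not passing with the trend removed (−0.11). MTRF1L, a release factor, rose by 1.12 ± 0.10, and the mitochondrial DNA helicase TWNK by 0.88 ± 0.10, among 11 higher and 4 lower of 21 mitochondrial DNA and translation factors.

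Respiratory chain subunits encoded in the nucleus followed. In complex I 27 of 37 were called higher and none lower, with a median of 0.43, and the 10 others did not pass. NDUFC2 went from 8.46, 7.42 and 7.01 CPM to 15.6, 15.97 and 15.4 CPM (1.04 ± 0.11, adjusted p = 1e-07). In complexes II to V 33 of 38 were called higher, led by ATP5MC1, a ring subunit of ATP synthase (37.2, 34.6 and 34.9 CPM, then 70.5, 69.4 and 63.6 CPM, 0.93 ± 0.08). The 2 lower members belong to complex II, SDHA (−0.27 ± 0.07) and SDHC (−0.21 ± 0.05), and neither passed with the span and length trend removed. In that fit 21 subunits of complex I were called higher, and of the other complexes 15. Matrix chaperones moved in the same direction, 10 of 16 higher and 1 lower, with HSPE1 at 12.8, 11.9 and 10.2 CPM and then 31.8, 26.99 and 30.97 CPM (1.37 ± 0.18), HSPD1 at 0.67 ± 0.06 and the protease subunit CLPX at −0.38 ± 0.06. The 37 genes of mitochondrial DNA itself had no counts in any library and were not tested.

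Genes of ribosome biogenesis rose nearly as a whole. Of the 33 genes 32 were called higher and none lower, 11 of them at least 2-fold, with a median of 0.84. With the trend removed 29 were called higher and 1 lower. NOP2, a methyltransferase of ribosomal RNA, went from 72.8, 58.5 and 69.6 CPM to 153, 130 and 177 CPM (1.19 ± 0.10, adjusted p = 1.4e-08). UTP4 rose by 1.01 ± 0.09 and NHP2 by 0.67 ± 0.06. POLR1C (1.19 ± 0.10), an RNA polymerase subunit, has a span in the files that runs over many other genes, so its counts are uncertain, and it gave 2.19 with the trend removed.

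MYC, the transcription factor known to drive these genes, went the other way. It stood at 1572, 1793 and 1795 CPM at day 6 and 773, 733 and 645 CPM at day 9 (−1.26 ± 0.11, adjusted p = 1.2e-08). MYCN fell by 1.27 ± 0.16. The MYC antagonists MXI1 (−1.28 ± 0.09) and MXD4 (−0.41 ± 0.08) fell too, whereas MLX (0.47 ± 0.07) and MGA (0.34 ± 0.08) rose, 6 lower and 2 higher of the 10 genes of the network.

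Cytosolic ribosomal protein genes were called higher in 55 of 78 and lower in 1, with a median of 0.28. With the span and length trend removed 14 were higher and 4 lower (median 0.05). FAU rose by 0.63 ± 0.07. Larger values of RPS10 (2.01 ± 0.14) and RPL17 (1.42 ± 0.10) are uncertain, since both lie in readthrough loci. The lower call, RPL13A (−0.20), was lost without day 9 replicate 1 (−0.16) or 2 (−0.15). Of 20 cytosolic transfer RNA synthetases 11 were called higher and 5 lower, led by FARSA (1.11 ± 0.10).

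Most genes of S phase rose, and more genes of mitosis fell than rose. Of 40 DNA replication genes 33 were called higher and 2 lower (median 0.47), and of 34 mitosis genes 20 were called lower and 2 higher (median −0.27). TK1, the thymidine kinase, went from 35.5, 34.9 and 33.0 CPM to 85.9, 92.1 and 74.0 CPM (1.29 ± 0.09, adjusted p = 6.3e-10). RRM2, which makes deoxynucleotides, went from 247, 247 and 234 CPM to 511, 466 and 524 CPM (1.04 ± 0.06), and the flap nuclease FEN1 rose by 1.13 ± 0.07. Lower calls in that list were CDT1 (−0.24), lost without day 6 replicate 2 (−0.16), and DBF4 (−0.20), lost without any of 4 libraries (day 6 replicates 1 and 2 and day 9 replicates 1 and 2, −0.20 to −0.13). On the mitotic side BUB1B, a spindle checkpoint kinase, went from 281, 303 and 287 CPM to 154, 141 and 203 CPM (−0.81 ± 0.10, adjusted p = 7.1e-07). KIF23 (−0.68 ± 0.08), PRC1 (−0.67 ± 0.08) and CDC25C (−0.59 ± 0.07) fell with it. UBE2C, at 0.742 to 1.04 CPM at day 6 (1.45 ± 0.20), and BIRC5 (0.43 ± 0.07) were the 2 higher members.

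The E2F element was searched in the same windows because E2F factors are known to switch on replication genes. TTTCCCGC or TTTGGCGC was found in 18 of 35 replication promoters (51.4%), 2 of 28 mitosis promoters (7.14%) and 4.25% of all windows. GINS3, a subunit of the replicative helicase (16.1, 11.5 and 14.7 CPM, then 29.4, 29.6 and 30.5 CPM, 1.08 ± 0.10), and UHRF1, which keeps DNA methylation through replication (226, 191 and 210 CPM, then 401, 355 and 463 CPM, 0.96 ± 0.09), were chosen for display after their values were seen. Their RefSeq windows are chr16:58392221-58392520 (plus strand) and chr19:4909251-4909550 (plus strand), with the match in capitals.
GINS3: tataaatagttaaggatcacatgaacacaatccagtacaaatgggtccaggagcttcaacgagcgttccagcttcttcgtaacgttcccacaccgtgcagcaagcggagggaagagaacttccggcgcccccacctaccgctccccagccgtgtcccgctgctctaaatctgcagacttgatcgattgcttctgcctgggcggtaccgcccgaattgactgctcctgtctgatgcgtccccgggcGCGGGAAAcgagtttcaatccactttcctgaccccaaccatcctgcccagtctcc
UHRF1: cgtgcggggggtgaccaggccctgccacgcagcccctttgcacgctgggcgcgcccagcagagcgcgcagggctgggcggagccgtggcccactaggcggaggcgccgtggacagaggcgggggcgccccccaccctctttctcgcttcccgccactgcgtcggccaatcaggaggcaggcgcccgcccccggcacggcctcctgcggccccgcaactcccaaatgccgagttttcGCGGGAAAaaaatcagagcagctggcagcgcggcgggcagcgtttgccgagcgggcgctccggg
Both hold TTTCCCGC on the opposite strand, starting 5 bases before the gene start in GINS3 and 14 bases before it in UHRF1.

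Nucleotide synthesis went up with replication, 14 of 19 higher and 1 lower. PFAS, of purine synthesis, went from 149, 101 and 133 CPM to 289, 245 and 334 CPM (1.18 ± 0.12). UMPS, of pyrimidine synthesis, rose by 1.09 ± 0.09. The lower call, PPAT (−0.19), was lost without day 6 replicate 2 (−0.14) or day 9 replicate 1 (−0.15) or 2 (−0.16).

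Most genes linked to leaving the cell cycle fell. Of 14 quiescence-linked genes 11 were called lower and none higher, with a median of −1.27. YPEL1 went from 18.5, 21.8 and 21.7 CPM to 5.64, 5.92 and 4.93 CPM (−1.91 ± 0.10, adjusted p = 4.6e-11). BCL6, a transcriptional repressor, went from 30.8, 45.6 and 37.1 CPM to 7.35, 8.35 and 7.02 CPM (−2.32 ± 0.15). KLF9 (−1.69 ± 0.12) and YPEL2 (−2.13 ± 0.15) fell as well, each with the days apart. CDKN1B (p27), the cell cycle inhibitor, was picked once its values had been seen and fell from 130, 182 and 142 CPM to 68.5, 67.3 and 82.8 CPM (−1.05 ± 0.10, adjusted p = 4.2e-08). TOB1 (−0.03, adjusted p = 0.76), CDKN2D (−0.26, adjusted p = 0.12) and YPEL4 (−1.06, adjusted p = 0.13) did not pass.

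Most chaperones of the cytosol rose. Of 14 heat shock genes 12 were called higher and 1 lower, 5 at least 2-fold, with a median of 0.75. With the span and length trend removed 9 were higher and none lower (median 0.66). HSP90AA1 went from 2197, 1700 and 1917 CPM to 4956, 4579 and 5194 CPM (1.34 ± 0.09, adjusted p = 8.8e-10), and its partner DNAJA1 from 209, 144 and 177 CPM to 468, 383 and 586 CPM (1.44 ± 0.14). HSPH1 rose by 1.14 ± 0.14. HSPA4L (−0.19 ± 0.06) was the lower member, and with the span and length trend removed it gave 0.01 (adjusted p = 0.87).

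Metallothioneins, which bind zinc and copper, and the zinc exporter SLC30A1 were called higher in all 6 members tested, of 8 listed. MT1E went from 27.4, 21.01 and 22.2 CPM to 99.4, 113 and 119 CPM (2.23 ± 0.14, adjusted p = 2.5e-10), and MT2A from 19.5, 22.7 and 20.04 CPM to 66.7, 65.6 and 84.8 CPM (1.80 ± 0.10). Their sequences are so alike that reads may be split between them, and MT1G and MT1H were not tested. Antioxidant targets of NRF2 were higher in 12 of 16 and lower in 3, with NQO1 at 0.78 ± 0.09, PGD at 0.55 ± 0.05 and GCLC at −0.49 ± 0.08.

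Most called glycolysis genes rose, and more hypoxia targets fell than rose. Of 20 glycolysis genes 11 were called higher and 3 lower, with a median of 0.47. LDHA, which makes lactate, went from 546, 483 and 492 CPM to 1026, 973 and 1179 CPM (1.06 ± 0.08, adjusted p = 1.5e-09). TPI1 rose by 1.00 ± 0.06, PGAM1 by 0.97 ± 0.07 and PKM by 0.94 ± 0.07. ALDOC (−0.81 ± 0.23) and PFKM (−0.26 ± 0.06) fell, with ALDOC at −0.48 without day 9 replicate 3. Of 14 hypoxia targets 7 were called lower and 3 higher. The higher ones were ANKRD37 (0.79 ± 0.18), BNIP3 (0.21 ± 0.06) and ANGPTL4 (0.97 ± 0.27), and the ANGPTL4 call was lost without day 9 replicate 2 (0.47). PDK1, which holds pyruvate back from mitochondria, went from 55.7, 56.7 and 56.6 CPM to 19.3, 19.2 and 21.7 CPM (−1.49 ± 0.07, adjusted p = 2.5e-11), and BNIP3L (−0.92 ± 0.11) and P4HA2 (−0.83 ± 0.07) fell with it. TXNIP, the glucose-responsive thioredoxin inhibitor, rose from 18.3, 19.2 and 17.6 CPM to 31.3, 34.1 and 21.6 CPM (0.66 ± 0.16, adjusted p = 0.0013).

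Sterol synthesis genes divided. Of 22 cholesterol genes 11 were called higher and 7 lower, and the summed level of the list was 2018, 3097 and 2156 CPM at day 6 against 2585, 2452 and 2563 CPM at day 9. Day 6 replicate 2 was the highest of the 6, and without it 13 members were called higher. The list's median, 0.18, was −0.03 with the span and length trend removed. INSIG1, the sterol sensor, went from 48.3, 111 and 57.0 CPM to 28.5, 26.0 and 29.0 CPM (−1.38 ± 0.21), a gene picked once its values had been seen. ACAT2 rose by 0.96 ± 0.07 and LSS by 0.71 ± 0.07 with no overlap.

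Feedback genes of the ERK pathway were called higher in 7 of 11 and lower in none. ETV4 went from 5.90, 6.67 and 7.04 CPM to 20.7, 16.1 and 28.3 CPM (1.73 ± 0.15, adjusted p = 1.6e-08), ETV5 rose by 2.20 ± 0.27 and DUSP5 by 1.48 ± 0.22. In SPRED1, SPRED2, DUSP4 and PHLDA1 the changes ran from −0.19 to 0.01 and did not pass. Of 11 NF-kB targets tested, from 15 listed, 6 were higher and 1 lower. NFKBIA, the NF-kB inhibitor, went from 20.6, 15.8 and 19.3 CPM to 37.4, 36.4 and 45.6 CPM (1.10 ± 0.12), and NFKB1 rose by 1.01 ± 0.08. Among p53 targets 7 of 15 were higher and 3 lower. TP53I3 went up from 7.60, 5.87 and 6.34 CPM to 33.7, 31.4 and 24.5 CPM (2.18 ± 0.16), and BBC3 (PUMA) fell by 1.35 ± 0.25.

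RNA-processing genes and nuclear RNAs moved as well. SRSF6, a splicing factor, went from 129, 104 and 117 CPM to 345, 300 and 367 CPM (1.53 ± 0.09, adjusted p = 1.1e-10), and the splicing kinase CLK4 fell by 1.12 ± 0.12. NEAT1, the long RNA that scaffolds paraspeckles, went from 13.0, 18.2 and 17.7 CPM to 2.71, 2.001 and 3.99 CPM (−2.49 ± 0.19, adjusted p = 3.2e-09). MALAT1, a nuclear RNA from the neighbouring locus, overlapped between the days at 1105, 1404 and 1313 CPM and 1453, 1016 and 850 CPM (−0.20 ± 0.13, adjusted p = 0.20), and it passed without day 9 replicate 1 (−0.44). Of 13 host genes of small nucleolar RNAs 5 were lower and 2 higher, with GAS5 at −0.66 ± 0.13 and SNHG32 at −0.90 ± 0.09, and without day 9 replicate 3 the lower count was 8.

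**Figure D3:**
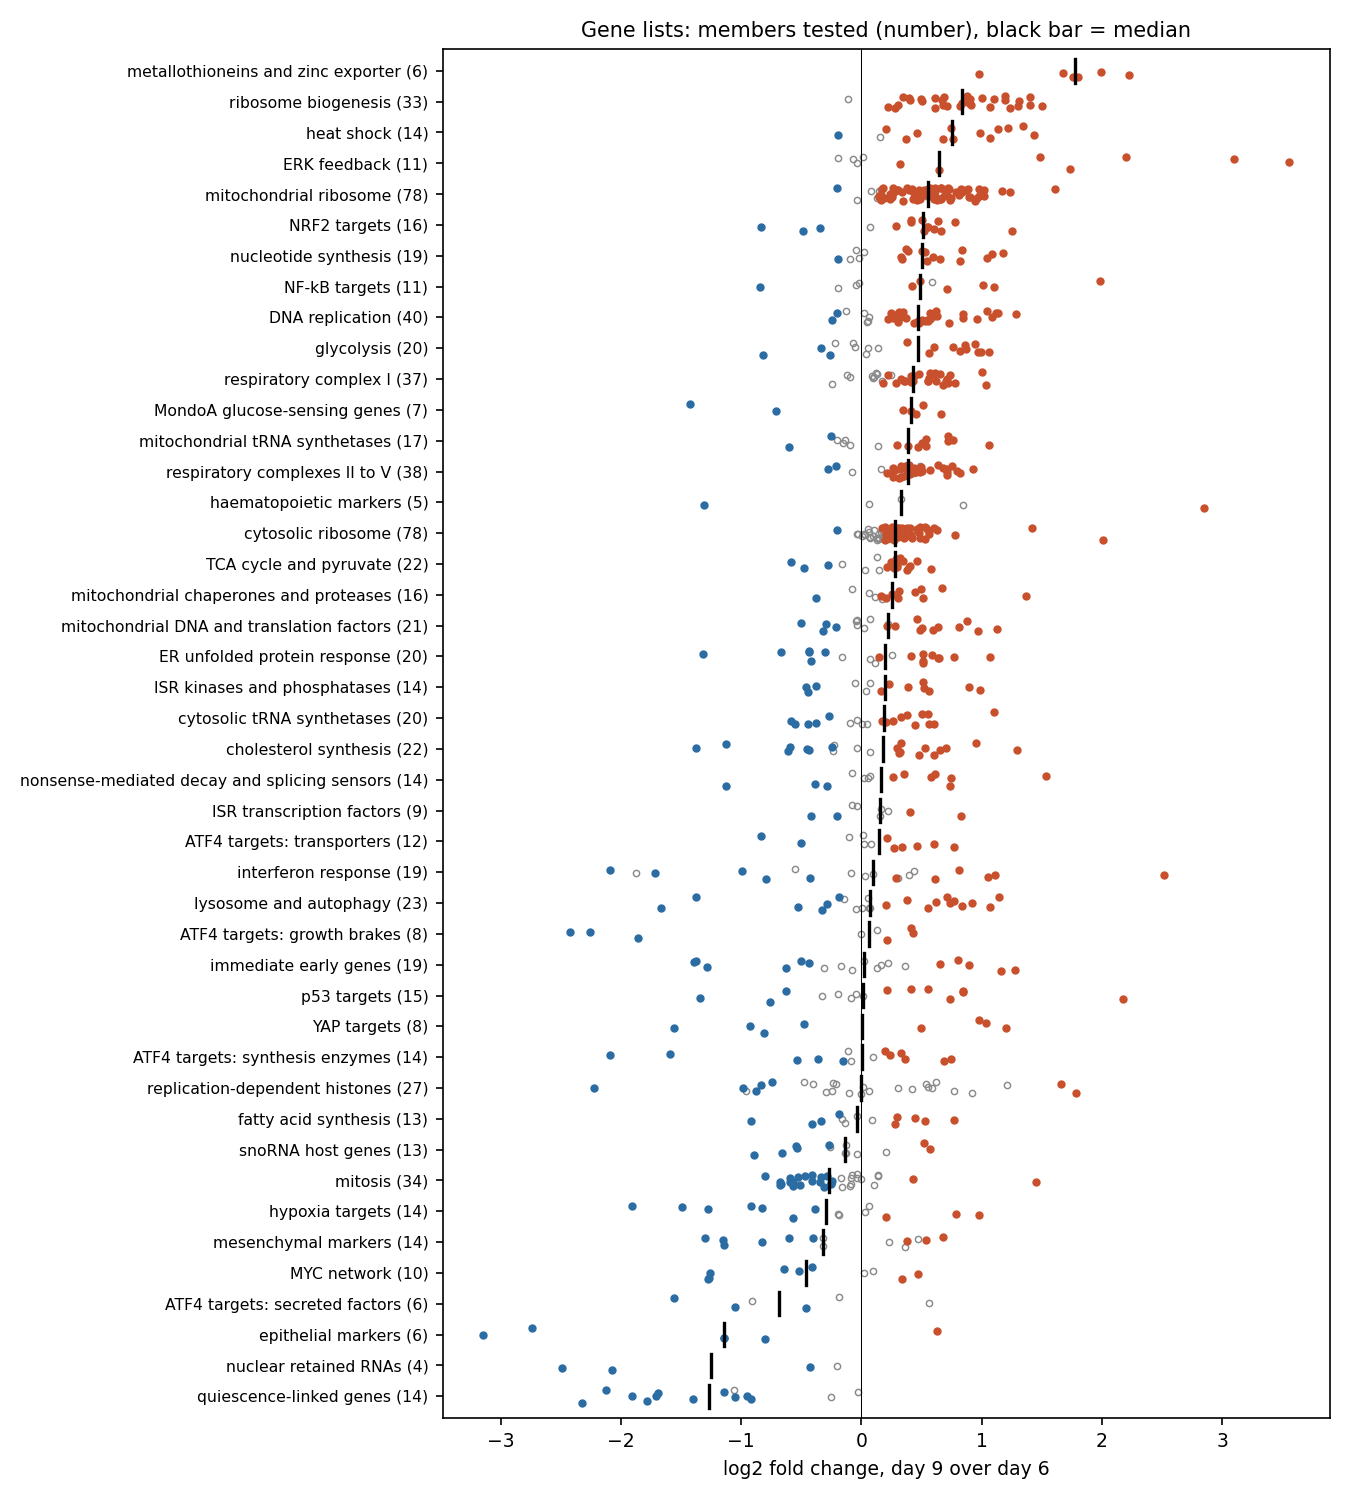
Log2 fold change, day 9 over day 6, of each tested member of the 44 gene lists: orange-red points are called higher, blue called lower, open grey did not pass, and black bars are list medians. Medians run from −1.27 for quiescence-linked genes to 1.78 for metallothioneins, and ribosome biogenesis has 32 of 33 members in orange-red.

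Markers of other cell types moved in part. Of 6 tested epithelial markers, from 10 listed, 5 were lower, such as TJP3 (−2.74 ± 0.33, and −3.51 without day 9 replicate 2), and KRT18 was higher (0.63 ± 0.10). The summed level of the list was 56.5 to 69.5 CPM at day 6 and 61.3 to 72.3 CPM at day 9, most of it KRT18. CDH1 was at 0 in both days. Mesenchymal markers were lower in 6 and higher in 3 of 14. The lower ones included ACTA2 (−1.30 ± 0.10), ZEB1 (−1.15 ± 0.11) and COL1A1 (−1.14 ± 0.16). The higher ones were VIM (0.54 ± 0.08), FN1 (0.68 ± 0.14) and CDH2 (0.38 ± 0.11). The list summed to 1462 to 1504 CPM at day 6 and 1433 to 1595 CPM at day 9. Of this VIM gave 591 to 611 CPM at day 6 and 761 to 1010 CPM at day 9. Of 12 haematopoietic markers 5 were tested, with 1 call in each direction, and the list summed to 19.6 to 23.0 CPM at day 6 and 8.89 to 10.03 CPM at day 9, nearly all of it KIT, the stem cell factor receptor (−1.31 ± 0.10). The part of such shifts in the results above was not tested.

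Fold changes also followed the size of genes. Across 11783 genes with a mean over 5 CPM over the 18 libraries, not independent of each other, Spearman's rho of log2 fold change with genomic span, introns included, was −0.43, and with exonic length it was −0.37. In parental cells without over with doxycycline the value for span was 0.29. In the shortest of 5 equal classes (66 to 9528 bp) the median was 0.36, with 56.7% called higher and 14.7% lower. In the longest class (92691 to 2304198 bp) the median was −0.38, with 12.9% higher and 64.7% lower. Genes of the longest class took 17.3% to 18% of these genes' counts at day 6 and 12.6% to 13.4% at day 9, so that the days did not overlap. A smooth trend of span and exonic length fitted in each library and removed left rho at −0.07 and 12134 genes called. The cause of the trend was not tested.

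**Figure D4:**
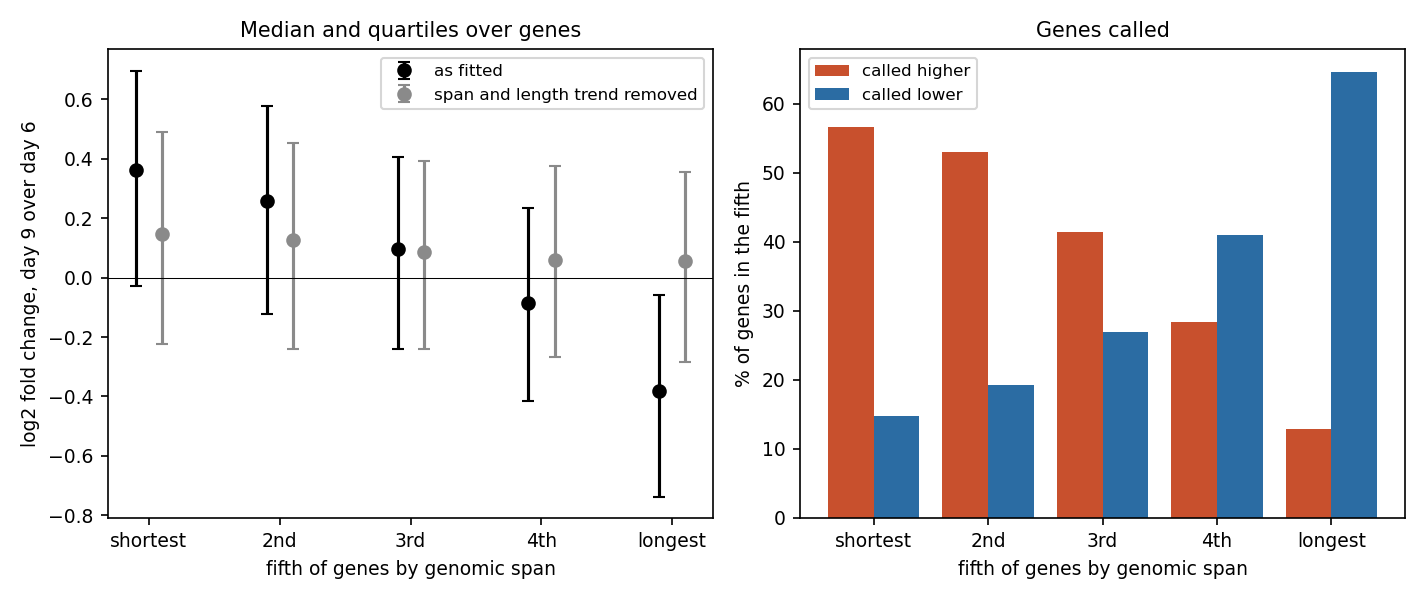
Left, median and quartiles of log2 fold change (day 9 over day 6) in 5 equal classes of 11783 genes by genomic span, as fitted (black) and with the span and length trend removed (grey). Right, percent of genes in each class called higher (orange-red) or lower (blue), which cross from 56.7% higher in the shortest to 64.7% lower in the longest.

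The same genes were set beside parental cells without against with doxycycline, a comparison that shares no library with this one. Across the 11783 genes Spearman's rho between both log2 fold changes was −0.68, and −0.63 with the trend removed from day 9 over day 6, given as a description with no test. NEAT1 gave −2.49 here and 1.89 there, and YPEL1 −1.91 and 1.39. MRPS12 gave 1.02 here and −1.15 there. Heat shock genes had a median of 0.75 here and −0.59 there, ribosome biogenesis 0.84 and −0.54, and the quiescence-linked genes −1.27 and 0.77. Some genes were called higher in both, among them the ATF4 targets CHAC1 (0.69 and 1.92), SESN2 (0.41 and 0.66) and SLC6A9 (0.77 and 0.74) and TXNIP (0.66 and 3.22). Other ATF4 targets ran opposite ways, such as GDF15 (−1.55 and 2.08), ADM2 (−1.05 and 0.94) and SLC7A11 (−0.84 and 0.86). The 6 secreted factors had medians of −0.68 here and 1.31 there, with 3 called lower and none higher here and 6 called higher there. ERK feedback genes had medians of 0.64 and 0.14, with ETV4 at 1.73 here and 0.14 there (adjusted p = 0.50). Against day 3 over doxycycline in the deleted line, which shares no library either, rho was 0.62. What the comparisons have in common was not tested.

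**Figure D5:**
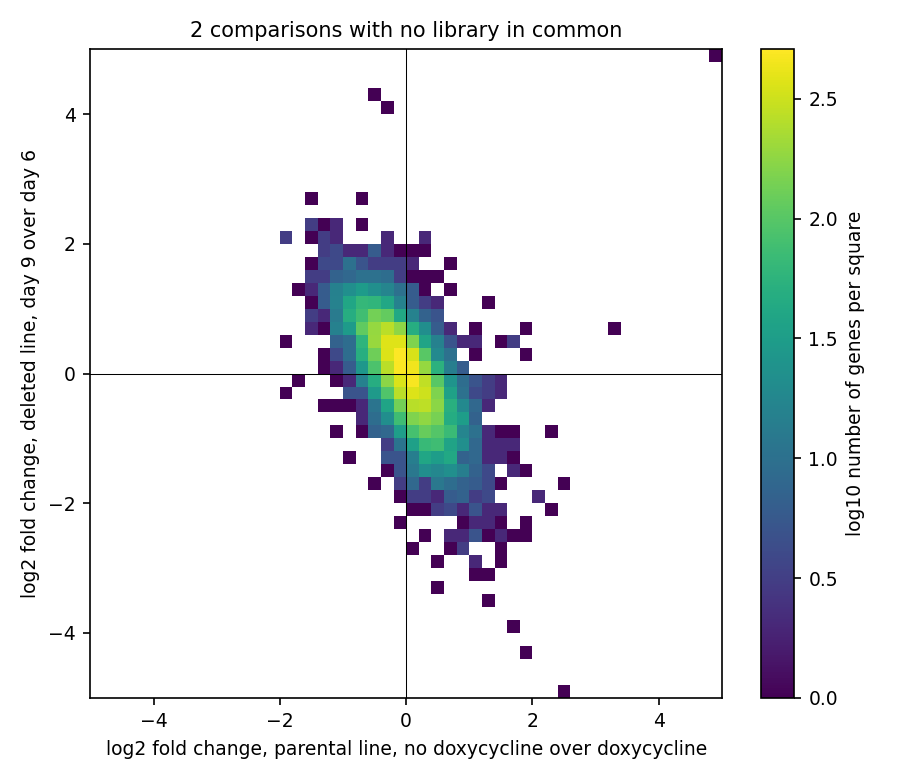
Number of genes (log10 colour scale, squares of 0.2 by 0.2) by log2 fold change in parental cells without over with doxycycline (x axis) and in the deleted line at day 9 over day 6 (y axis), for 11783 genes. The cloud runs from upper left to lower right, with Spearman's rho at −0.68.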

How the data were processed

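RNA was sequenced as 151-bp paired ends, per the labels' protocols. The authors deposited raw counts per gene, assigned reads of 59251 genes on GRCh38, and DESeq2, featureCounts, Subread, SAMtools, HISAT2 and cutadapt 2.3 are listed, with no roles, per the submitters' processing notes. Column headers carry RF, HISAT2's name for reverse-stranded pairs, per the file headers. The annotation release and whether featureCounts used strand are not given here. Unless it did, reads of overlapping genes, such as ATF5, DDIT3, HSP90AA1, ACAT2 and TP53I3 with partners on the opposite strand, cannot be told apart.

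From the deposited counts, 16 genes broken over several lines were rejoined, and 6 libraries held in 2 tables were identical there and counted once. edgeR 4.0.16 in R 4.3.3 was fitted to all 18 libraries in 6 groups, with TMM scaling and filterByExpr, which left 21615 genes, and the quasi-likelihood test was taken for day 9 minus day 6. Two-sided p-values were adjusted over all genes tested. The procedure was also run on counts simulated from its own fitted model. The outcome is not reported here, and no assurance for the calls is drawn from it. The 16 alternatives included DESeq2 1.42.0, and mgcv 1.9.3 fitted the span and length trend.

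The genes and the 44 lists were chosen with earlier results of these data known. Named genes are 10 given in advance of this fit, the 8 largest called changes in each direction with a mean of at least 5 CPM in the higher day, no overlap and a call without each library in turn, and in each list up to 4 called members with the smallest p in its main direction and the called members in the other where these were 3 or fewer. Genes named beyond this rule were chosen after their values were seen. Some genes that the rule names are not reported here. A check of GC content was left out because too few genes had a value.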

Additional observations from a re-analysis of the deposited data

How the results depend on the processing

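Leaving out 1 library at a time gave 11588 to 12550 genes called, against 12709. DESeq2 called 12937 and the replicate block 12565. Same-numbered libraries did not deviate together (correlations −0.16 to −0.07), so the numbers were not taken to pair them. With the stricter low-count filter, which left out genes at low levels, 8993 genes were called. At least 2-fold changes were called for 540 genes upward and 907 downward, against 1627 and 2698. Of 704 counts for lists under the 16 alternatives, 30 moved by over 1.5 times, and 12 of 44 list medians changed sign under at least 1 alternative.

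ISR transcription factors called higher numbered 1 with library size only, the stricter filter, the fits of 6 or 12 libraries and the trend removed, with or without the replicate block, and 1 to 3 without 1 library. Growth brakes called higher numbered 1 with library size only or 6 libraries, and 1 to 3 without 1 library. Synthesis enzymes called higher numbered 3 with library size only. With the trend removed, 15 genes of complexes II to V and 14 of the cytosolic ribosome were higher (15 and 13 with the replicate block) and 8 histones lower. With the stricter filter, interferon genes called higher numbered 3, ERK feedback genes 4 and haematopoietic markers 0, and those called lower numbered 3 among immediate early genes, 3 among histones and 2 among epithelial markers. Lower snoRNA host genes numbered 8 with library size only or the stricter filter, 3 with 6 libraries and 4 to 8 without 1 library.

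Of 3773 values for named genes 86 changed call or sign. Those that reversed were ATF4, at −0.072 to 0.005 without 1 library, and, with the trend removed, BNIP3 (−0.013), SUCLG2 (0.056), HSPA4L (0.012, and 0.011 with the block) and ME1 (0.057, and 0.052 with the block). Why these values and the counts above moved was not tested. What depth limits was not tested. Each library of day 6 and day 9 held at least 79576230 counts, and each of the 18 of the series at least 66850705.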

Other observations

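Other gene lists held called members between the libraries labelled day 6 and day 9. Of all genes tested 28.6% were called higher and 30.2% lower. Genes of protein folding in the endoplasmic reticulum were called higher in 10 of 20 and lower in 6, with changes from −1.32 to 1.07. CALR, the lectin chaperone calreticulin, stood at 590, 729 and 587 CPM at day 6 and 1088, 1014 and 1145 CPM at day 9 (0.77 ± 0.08, SE), and CRELD2 rose by 1.07 ± 0.13. Genes of the lysosome and autophagy were higher in 11 of 23 and lower in 6, with changes from −1.67 to 1.14. SQSTM1, the autophagy receptor p62, gave 0.77 ± 0.06 and the protease CTSD 0.74 ± 0.07. Of 22 genes of the TCA cycle and pyruvate entry 15 were higher and 3 lower. MPC1, a pyruvate carrier, went up from 26.1, 24.2 and 26.6 CPM to 42.9, 38.4 and 33.9 CPM (0.58 ± 0.08). IDH2 went down from 161, 155 and 156 CPM to 111, 137 and 90.0 CPM (−0.48 ± 0.12). In both genes the days did not overlap.

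Medians of the fatty acid, interferon, immediate early, YAP, histone and lysosome lists changed sign under at least 1 alternative, so those medians are not given in the text. Fatty acid genes were higher in 5 and lower in 4 of 13, with FADS2, a desaturase, at 0.77 ± 0.06. Glucose-sensing genes around MondoA were higher in 5 and lower in 2 of 7, with KLF10 at 0.45 ± 0.09 and ARRDC3 at −0.71 ± 0.10. Interferon response genes were higher in 6 and lower in 5 of 19, with changes from −2.09 to 2.52. OAS3 gave 0.61 ± 0.07 and IRF1 0.81 ± 0.10. In that list 57.9% of tested members were called, near the 58.8% of all genes tested. Immediate early genes were higher in 5 and lower in 6 of 19, again 57.9% called. Their changes ran from −1.39 to 1.28, with BTG2 at −0.62 ± 0.08. Of 8 tested YAP targets 4 were higher and 4 lower, with changes from −1.56 to 1.21. AMOTL2 went up from 25.3, 22 and 24.7 CPM to 50.8, 50.5 and 64.5 CPM (1.21 ± 0.10), and CCN1 by 0.98 ± 0.17.

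Of 27 replication-dependent histone genes tested, from 38 listed, 5 were lower and 2 higher. That is 25.9% called, under the 58.8% of all genes tested. H2BC11 stood at 4.33, 3.34 and 3.62 CPM at day 6 and 0.498, 0.505 and 1.39 CPM at day 9 (−2.23 ± 0.29, and −2.89 without day 9 replicate 3). The higher calls, H3C1 (1.66) and H4C1 (1.79), rest on levels of at most 0.514 CPM, and were lost without day 9 replicate 3 (1.12) and day 6 replicate 3 (1.55). Among 14 splicing and RNA decay sensors 7 were higher and 3 lower, with SRSF3 at 0.73 ± 0.11 and SRSF2 at 0.74 ± 0.12. Nuclear retained RNAs were lower in 3 of 4 tested, with OIP5-AS1 at −0.43 ± 0.08. Adjusted p-values of all genes named here as called were under 0.05 by edgeR's quasi-likelihood test.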
